A study of Mus musculus with 18 samples.

Results

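The mouse mammary carcinoma lines AT-3 and E0771 were compared in the cells that carried the empty retroviral vector pRetroX and therefore no MRTFA construct. The comparison takes the 3 AT-3 and the 3 E0771 libraries labelled with the empty vector, 6 of the 18 in the series. The other 12 libraries are the same lines with wild-type MRTFA or with Y238A MRTFA, a form deficient in binding SRF per the series' design text, and they enter here through the shared estimate of spread and as a count of differences found again. All cultures, the empty-vector ones included, received doxycycline at 2 µg/ml for 48 h, so a line's own response to the drug or the vector cannot be told apart from its baseline. AT-3 was derived from a mammary tumour of a mouse carrying the polyoma middle T oncogene under the MMTV promoter, and E0771 from a spontaneous mammary tumour, both on a C57BL/6 background. The labels do not say whether the transduced cells were a clone or a pool, and they name 3 replicate sets without saying whether these were separate cultures, so p-values measure the spread between these libraries, which may be technical. Construct-free AT-3 and E0771 differ in origin, and no other line of either origin was measured, so a difference between the lines cannot be told apart from a difference between the 2 tumours they came from.

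Mammary epithelium has luminal cells, which carry keratins 8 and 18 and make milk, and contractile basal or myoepithelial cells, which carry keratins 5 and 14 and smooth muscle actin. Carcinoma cells can lose E-cadherin junctions and keratins and take on vimentin, N-cadherin and fibronectin, a shift called epithelial to mesenchymal transition and driven by factors of the SNAI and ZEB families. Both lines are widely used as transplantable tumours in mice with an intact immune system, for which antigen presentation, interferon response and secreted chemokines matter.

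Values are CPM, counts scaled to a common library size by TMM, given per library in the order of replicates 1, 2 and 3, or as mean ± SD over the 3 libraries of a line. Log2 fold changes are AT-3 over E0771, so a positive value is higher in AT-3. Adjusted p-values come from edgeR's quasi-likelihood test over all 17841 genes tested. The ± after a log2 fold change is its absolute value divided by the square root of that test's F statistic. For genes with few counts in a line it can fall below counting error alone, so it is no interval for the fold there. Library totals in the 6 libraries lay between 81963607 and 97984760 counts. E0771 replicate 2 stood apart: over 277 genes with 10 CPM or more in every AT-3 library and a median under 0.3 CPM in E0771 it held a median 1.35% of the AT-3 level (interquartile range 1.13% to 1.61%), and all 277 had a count there, whereas the median in E0771 replicates 1 and 3 was 0%. For such genes the E0771 level and the fold change with all 6 libraries rest on replicate 2, so the per-library values are printed, and the fold without that library is given where it is named. In the other direction, 123 genes of E0771 stood at medians of 0.144% to 0.209% of the E0771 level in the 3 AT-3 libraries. The construct entry of the table had 2, 0 and 2 counts in AT-3 and 12, 10 and 0 in E0771.

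The labelled cell type was checked against marker genes. The summed level of 5 epithelial markers (Epcam, Cdh1, Krt8, Krt18, Krt19) was 5.56 to 5.90 CPM in AT-3, where Krt19 alone reached 1 CPM, and 304 to 328 CPM in E0771, where Krt8 and Epcam did. Both lines are labelled mammary carcinoma, and in both the defining epithelial gene Cdh1 was below 1 CPM. The 5 basal markers, mostly Acta2, summed to 2936 to 3000 CPM in AT-3 and 379 to 452 CPM in E0771. Markers of T cells summed to at most 0.0632 CPM and those of B cells to at most 0.272 CPM in any library. The 8 macrophage and leukocyte markers summed to 5.38 to 6.11 CPM in AT-3 and 7.85 to 9.68 CPM in E0771, with Lyz2 and Cd68 alone above 1 CPM. Fibroblast markers summed to 130 to 141 CPM in AT-3 and 658 to 696 CPM in E0771, where Col3a1 and Col1a1 made up most of the sum. Of the other fibroblast markers, Pdgfra was higher in AT-3 (111 ± 3.63 against 44.98 ± 3.05 CPM), as was Col1a2. In bulk RNA, a level shared by all cells and a higher level in fewer cells cannot be told apart. The genes Ddx3y, Uty, Kdm5d and Eif2s3y of the Y chromosome had 0 counts in all 6 libraries.

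The 2 lines differed over most of the transcriptome. Of 17841 genes, 12847 passed an adjusted p of 0.05 (72.0%), 6561 higher in AT-3 (36.8%) and 6286 higher in E0771 (35.2%). With library totals in place of TMM scaling the balance turned, with 6137 higher in AT-3 and 6751 in E0771. Differences of at least 4-fold that passed numbered 2499 higher in AT-3 (14.0%) and 1920 higher in E0771 (10.8%), 24.8% of all genes together. The 3 libraries of 1 line did not overlap those of the other in 13502 genes (75.7%). Many genes named below were picked for wide differences, so lack of overlap in them is no separate result. The median log2 fold change of all genes was 0.013, with an interquartile range of -0.78 to 0.98. These shares are the background for each group of genes below, since 72.0% of all genes were called. Among genes with a mean of at least 1 CPM, a limit added after seeing the data, the share was larger, 9882 of 11742. The number called in a list is to be read beside both shares. In the libraries with Y238A MRTFA, where 74.6% of genes were called between the lines, 3993 of the 4419 differences of at least 4-fold (90.4%) were called in the same direction and 15 in the opposite one. With wild-type MRTFA, where 79.8% of genes were called, 3706 (83.9%) were called the same way and 165 the opposite way.

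**Figure D1:**
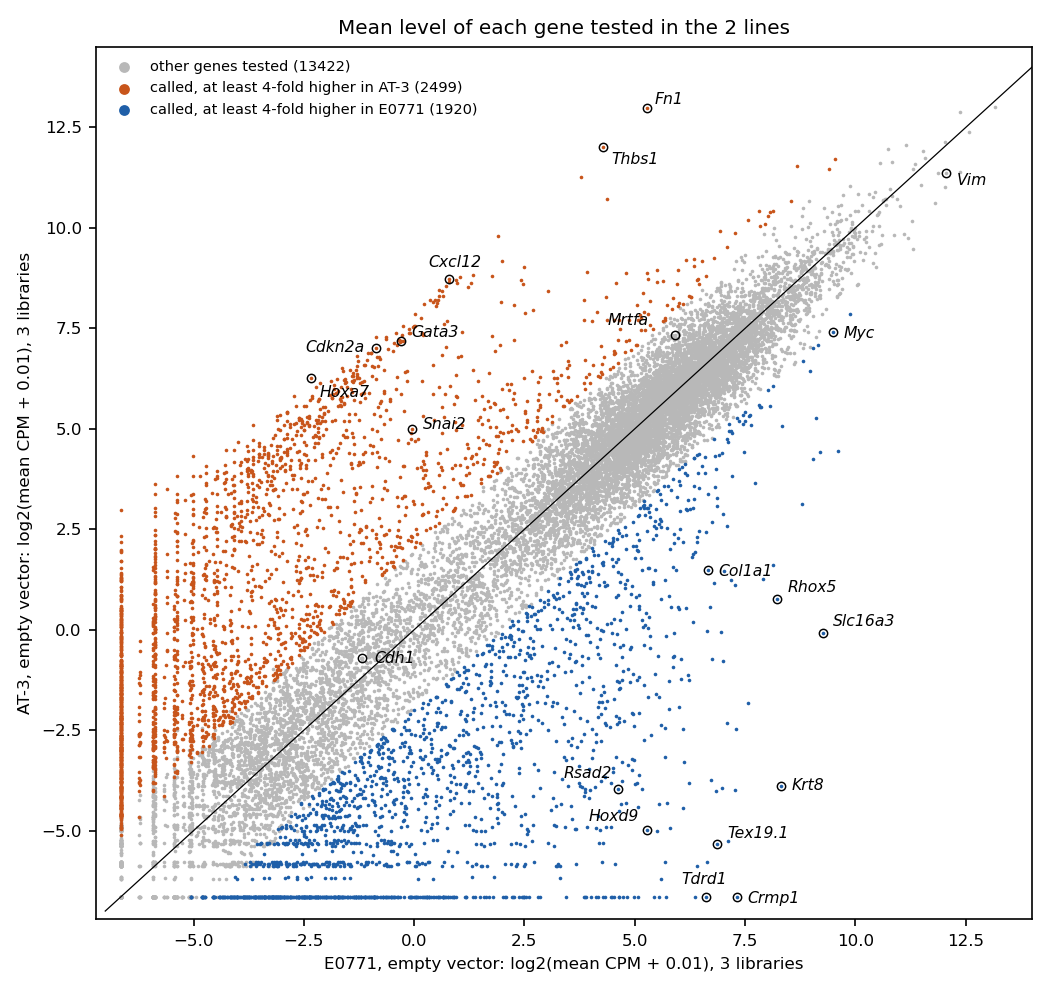
Each point is a gene, with its mean level in E0771 on the x axis and in AT-3 on the y axis, both as log2 of CPM + 0.01 over 3 empty-vector libraries, and labelled points are genes named in the text. Points along the lower edge are genes near 0 in AT-3, among them Krt8 at 301 to 325 CPM in E0771, and points along the left edge are genes near 0 in E0771.

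A set of genes was expressed in 1 line and not detected in the other. With a mean of at least 1 CPM in the line that had it and 0 counts in the other, 89 genes were seen in E0771 alone and 68 in AT-3 alone, and the latter number was 391 without E0771 replicate 2. Allowing up to 1% of the level in the other line gave 628 genes for AT-3 (745 without that replicate) and 283 for E0771. At a mean of 5 CPM the same rule gave 447 and 181, among them members of several groups described below. Bounds for genes with 0 counts use a floor of 3 counts over the 3 libraries, or over E0771 replicates 1 and 3 where replicate 2 is left out. They cover counting error only, and take each count as 1 fragment, although even counts were in excess.

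Among genes of at least 20 CPM the widest differences toward E0771 were in genes at 0 counts in all 3 AT-3 libraries. Crmp1, a microtubule-associated protein best known from neurons, stood at 158, 160.1 and 160.1 CPM in E0771, at least 13921-fold higher than in AT-3. Evc2, which works at the base of the primary cilium in Hedgehog signalling, stood at 52.3, 53.1 and 50.6 CPM, at least 4542-fold higher. Nr5a1, the nuclear receptor that directs adrenal and gonadal development, stood at 27.4, 28.6 and 28.6 CPM, at least 2462-fold higher. Each was even across the 3 E0771 libraries and absent from every AT-3 library. Crmp1 and Evc2 lie close together on chromosome 5 (37241940 to 37292133 and 37338499 to 37425055, GRCm38). Whether the 2 differences are independent was not tested. Gypc, a red cell membrane glycoprotein, and Tmem51 and Elfn2 followed the same pattern, with bounds of 1943-fold, 2743-fold and 2184-fold. Fam83g had 2 counts in AT-3 and 85.5 ± 2.51 CPM in E0771, 11211-fold higher (95% counting interval 3103 to 92581).

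Toward AT-3, genes were ranked with E0771 replicate 2 left out, a choice made after seeing the data. The widest differences at 20 CPM or more then included a chemokine, a guidance ligand, cell surface proteins and homeobox genes. With all 6 libraries the order was another, and Foxf2 (log2 fold change 8.96) and Hoxa7 (8.72) differed more than Cxcl12 (7.98). Cxcl12, the chemokine that holds CXCR4-bearing cells in place, stood at 407, 430.1 and 424 CPM in AT-3 and at 0, 5.16 and 0 CPM in E0771, and without E0771 replicate 2 it was at least 28893-fold higher in AT-3. Sema3e, a guidance ligand of plexin receptors, stood at 322, 346 and 358 CPM in AT-3 and 0, 4.63 and 0 CPM in E0771, at least 23467-fold higher without that replicate. In both, the only E0771 library with counts was replicate 2, and even there the level was far below AT-3. Nrp1, a coreceptor for semaphorins and VEGF, and Gpc4, a heparan sulphate proteoglycan of the cell surface, had the same form, with 189 ± 5.77 and 167 ± 2.24 CPM in AT-3 and 0 counts in E0771 replicates 1 and 3. The homeobox genes Irx1 and Irx2 stood at 104 ± 3.78 and 127 ± 1.03 CPM in AT-3, also with 0 counts in those 2 E0771 libraries.

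Luminal keratins were split between the lines. Krt8, the type II keratin of simple epithelia, stood at 0.0925, 0.0421 and 0.0371 CPM in AT-3 and at 325, 324 and 301 CPM in E0771, a log2 fold change of -12.40 ± 0.21 (adjusted p = 3.48e-17). Krt18, its usual type I partner, stood at 0.463, 0.59 and 0.396 CPM in AT-3 and 0.0192, 0.0211 and 0.0392 CPM in E0771, 4.12 ± 0.62 on the log2 scale (adjusted p = 4.55e-06). E0771 thus had a high Krt8 level with almost no Krt18 message, and AT-3 was below 1 CPM for both, so no library had both at 1 CPM or more. The 2 genes are neighbours, Krt8 at chromosome 15, 101996698 to 102004482 and Krt18 at chromosome 15, 102028180 to 102032027 (GRCm38). Krt19, named after its values were seen, was the one of the 5 epithelial markers to reach 1 CPM in AT-3, at 3.88 ± 0.33 CPM against 0.0399 ± 0.00192 CPM. The basal keratin gene Krt14 was higher in AT-3, at 6.93, 6.85 and 6.71 CPM against 2.38, 1.4 and 1.67 CPM, and Krt5 had 2 counts in AT-3 and 4 in E0771. Nestin (Nes), an intermediate filament protein of progenitor cells, was higher in E0771, at 498 ± 18.5 CPM against 86.9 ± 2.9 CPM. Over the list of keratins and other intermediate filaments, 6 of 23 tested genes were higher in AT-3 and 7 in E0771, and the median log2 fold change was 0.

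The promoters of this gene pair are shown because neighbouring genes with a shared role had opposite levels. Each is the 250 bases before the gene's start from RefSeq (GRCm38.p6), 5′ to 3′ on the gene's strand, with CpG dinucleotides in capitals. The RefSeq starts differ from the gene bounds given above, so part of each stretch lies inside those bounds. Krt8 (chr15:102004343-102004592, minus strand) holds 3 CpG here and Krt18 (chr15:102027966-102028215, plus strand) holds 12.
Krt8: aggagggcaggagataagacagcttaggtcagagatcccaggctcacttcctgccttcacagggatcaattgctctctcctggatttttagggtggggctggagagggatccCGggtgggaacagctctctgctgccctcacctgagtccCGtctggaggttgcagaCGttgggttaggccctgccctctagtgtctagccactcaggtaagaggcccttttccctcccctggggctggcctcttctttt
Krt18: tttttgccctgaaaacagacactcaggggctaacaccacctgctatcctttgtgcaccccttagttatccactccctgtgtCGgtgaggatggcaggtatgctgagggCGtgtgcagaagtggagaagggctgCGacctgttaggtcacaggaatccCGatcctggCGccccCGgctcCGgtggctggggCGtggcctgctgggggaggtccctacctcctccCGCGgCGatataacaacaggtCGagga

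Epithelial junction genes differed in both directions, and 16 of the 33 tested were below 1 CPM in both lines. Cdh1 (E-cadherin) stood at 0.509, 0.548 and 0.743 CPM in AT-3 and 0.50, 0.337 and 0.451 CPM in E0771, and the difference did not pass the test (log2 fold change 0.48 ± 0.35, adjusted p = 0.233). Epcam, an epithelial adhesion protein, was higher in E0771, at 2.35, 1.71 and 2.0 CPM against 0.648, 0.864 and 0.767 CPM, log2 fold change -1.41 ± 0.29 (adjusted p = 1.79e-04). Of 33 tested genes of epithelial junctions and polarity, 15 were higher in AT-3 and 7 in E0771, with a median of 0.71. The tight junction genes F11r (log2 fold change 5.96) and Patj (5.78) and the desmosomal plakophilin Pkp1 (6.10) were higher in AT-3. Plakophilin Pkp3 (-4.27) and the protease inhibitor Spint2 (-2.35) were higher in E0771. Plakoglobin (Jup), shared by desmosomes and adherens junctions, stood at 72.5 ± 2.9 CPM in AT-3 and 68.5 ± 0.184 CPM in E0771, a difference that did not pass (adjusted p = 0.429).

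Mesenchymal genes were mostly higher in AT-3, with exceptions of some size. Of 37 tested, 31 were higher in AT-3 and 4 in E0771, and the median log2 fold change was 1.77 (1.78 without E0771 replicate 2). Cdh2 (N-cadherin) stood at 298, 288 and 292 CPM in AT-3 and 0, 3.75 and 0.0784 CPM in E0771 (adjusted p with all libraries 2.44e-06). Without replicate 2 its ratio was 7536, which rests on 8 counts in E0771. Fn1 (fibronectin), the matrix glycoprotein that binds integrins and collagen, stood at 8404, 8225 and 7647 CPM in AT-3 and 0.077, 115.3 and 0 CPM in E0771. Its adjusted p was 0.0117 with all 18 libraries in the fit, 0.0922 with the 6 empty-vector libraries fitted alone and 1.94e-04 without E0771 replicate 2, since nearly all its E0771 counts were in that library. Every AT-3 library was far above every E0771 library for both genes. Snai2, a repressor of E-cadherin, stood at 30.3, 32.7 and 32.4 CPM in AT-3 and 0.982, 0.905 and 0.999 CPM in E0771, log2 fold change 5.05 ± 0.27 (adjusted p = 1.65e-10). Foxc2, a forkhead factor of mesenchyme, stood at 15.4 ± 1.06 CPM in AT-3 against 0.0192, 0.147 and 0.0392 CPM in E0771. Vimentin (Vim), the filament of mesenchymal cells, was abundant in both and higher in E0771, at 4178, 4320.1 and 4275 CPM against 2639.7, 2616 and 2670.4 CPM (log2 fold change -0.69 ± 0.067). The homeobox gene Prrx1 was also higher in E0771, at 28.6 ± 0.709 CPM against 0.0863 ± 0.0599 CPM. Zeb1 differed little (0.35 ± 0.063 on the log2 scale, adjusted p = 5.07e-05), and Zeb2, at 91.3 ± 1.69 CPM in AT-3 and 92.7 ± 1.47 CPM in E0771, did not pass (adjusted p = 0.67).

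Of 18 epithelial transcription and splicing factors, 11 were higher in AT-3 and 5 in E0771 (median 2.00). Without E0771 replicate 2 it was 9 of 19 in AT-3 with a median of 1.39, and without AT-3 replicate 1 the median was 0.89. Gata3, the factor that specifies luminal cells, stood at 148, 147 and 144 CPM in AT-3 and 0.0289, 2.38 and 0 CPM in E0771, and without E0771 replicate 2 its E0771 level rests on 3 counts. Cd24a, a surface glycoprotein of luminal cells, stood at 430.1, 446 and 449 CPM in AT-3 and 0.0962, 5.87 and 0.137 CPM in E0771. The 2 genes were on in all AT-3 libraries and at or near 0 in E0771 replicates 1 and 3. Of 23 tested luminal and milk genes, 14 were higher in AT-3 and 7 in E0771 (median 1.84, or 1.61 with genes at 0 counts set to their bounds). Esr1, the oestrogen receptor, was low in both and higher in AT-3, at 3.96, 3.64 and 3.29 CPM against 1.06, 1.2 and 0.588 CPM (log2 fold change 1.94 ± 0.31, adjusted p = 1.16e-05), and Pgr, the progesterone receptor, had 2, 0 and 8 counts in AT-3 and 0 in E0771, too few to be tested. Erbb2 stood at 70.6 ± 1.29 CPM in AT-3 and 60.6 ± 0.0574 CPM in E0771, log2 fold change 0.22 ± 0.059, and its partner receptor Erbb3 was higher in E0771 (2.29 ± 0.235 against 11.1 ± 0.931 CPM). Tbx3, a T-box factor of mammary bud formation, was on the E0771 side, at 30.6 ± 0.989 CPM against 0.0983 ± 0.0285 CPM.

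Basal and myoepithelial genes were higher in AT-3 in 16 of 24 tested members and higher in E0771 in 3, with a median log2 fold change of 2.25. Acta2 (smooth muscle actin), named after its values were seen, stood at 2925, 2973 and 2989 CPM in AT-3 and 377, 450.1 and 403 CPM in E0771, log2 fold change 2.85 ± 0.13 (adjusted p = 3.10e-11). Cnn1 (calponin), which binds actin in smooth muscle, stood at 167, 163 and 170.4 CPM in AT-3 and 0.154, 2.25 and 0.353 CPM in E0771. Actg2, the enteric smooth muscle actin, stood at 285 ± 2.61 CPM in AT-3 against 2.58, 6.25 and 2.89 CPM in E0771. These contractile genes were higher in every AT-3 library than in any E0771 library, whereas the myosin kinase Mylk, at 2.21 ± 0.043 and 2.1 ± 0.0741 CPM, did not pass the test (adjusted p = 0.919). Igfbp7 and the differentiation inhibitor Id4 had 0 counts in E0771 replicates 1 and 3 and stood at 56.9 ± 2.64 and 5.17 ± 0.0922 CPM in AT-3.

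HOX genes, which encode position along the body axis and sit in 4 clusters, separated the lines by cluster. All 11 Hoxa genes tested, on chromosome 6, were higher in AT-3, with a summed level of 136 to 147 CPM in AT-3 and 8.19 to 10.4 CPM in E0771. Toward E0771, 6 of 7 tested Hoxd genes (chromosome 2), 5 of 7 Hoxb genes (chromosome 11) and 6 of 9 Hoxc genes (chromosome 15) were higher, and 1 Hoxc gene was higher in AT-3. Summed means of these 3 clusters were 0.0218, 0.0489 and 0.398 CPM in AT-3, against 88.3, 15.3 and 41.7 CPM in E0771. The summed level of each cluster thus separated the lines in every library, and the direction was not shared by the 4 clusters. Hoxa7, among the widest differences toward AT-3, stood at 75.2, 72.3 and 82.4 CPM in AT-3 and 0.0577, 0.505 and 0 CPM in E0771. Hoxd8, with 23.8, 23.1 and 21.8 CPM in E0771 and 0 counts in AT-3, was at least 2004-fold higher in E0771, and Hoxd10 was at least 1739-fold higher (17.98, 20.4 and 21.4 CPM). Hoxd9 stood at 38.8 ± 1.07 CPM and Hoxc10 at 27.9 ± 1.62 CPM in E0771, against 0.0218 ± 0.0211 and 0.040 ± 0.0522 CPM in AT-3. Hoxb9 and Hoxc11 were under 0.05 CPM in each library and did not pass.

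**Figure D2:**
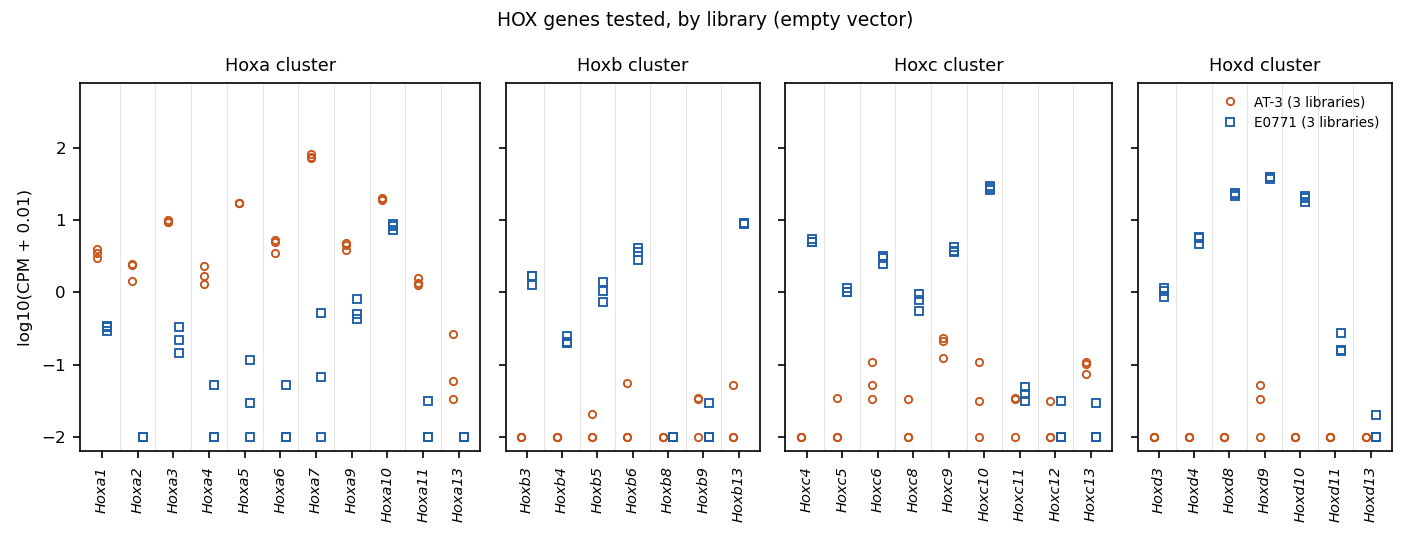
HOX genes are grouped by cluster along the x axis, and the y axis (log scale) gives CPM + 0.01 in each of the 3 AT-3 and 3 E0771 libraries. Hoxa genes are higher in AT-3, and most Hoxb, Hoxc and Hoxd genes are near 0 in AT-3 and up to 39.6 CPM in E0771.

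Other developmental transcription factors also differed between the lines. Of 109 tested, 70 were higher in AT-3 and 28 in E0771, 60 and 20 of them by at least 4-fold (median 3.69, or 3.08 with genes at 0 counts at their bounds). The list has 127 genes, and only those with enough counts in some group could be tested. Genes silent in every group are thus left out of these numbers. Of the 109, 25 had 0 counts in a line and 32 were below 1 CPM in both. On the AT-3 side, Foxf2, a factor of gut and palate mesenchyme, stood at 25.6 ± 2.13 CPM against 0, 0.158 and 0 CPM. Nkx2-5, the cardiac homeobox gene, stood at 26.5 ± 1.21 CPM against 0, 0.211 and 0 CPM. Ebf1, a B-cell and adipose factor, stood at 6.88 ± 0.783 CPM against 0.0192, 0.0211 and 0 CPM. These 3 factors belong to different organs and share only their place on the AT-3 side. On the E0771 side, Tbx1, a pharyngeal factor, stood at 33.7 ± 2.48 CPM against 0.0372 ± 0.035 CPM. Pax5, the B-lineage factor, stood at 25.9 ± 0.493 CPM against 0.0395 ± 0.0301 CPM, while B-cell surface markers were near 0 in both lines as given above. Hand1, a heart and placenta factor, had 0 counts in AT-3 and 7.18 ± 0.805 CPM in E0771, at least 627-fold higher. Sox9, at 82.5 ± 8.7 and 84.4 ± 2.78 CPM, did not pass (adjusted p = 0.634, and 0.0292 without AT-3 replicate 1).

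Several germline and placental genes were expressed in E0771 and at or near 0 in AT-3, while most of the list was low in both lines. Of 39 listed genes 21 could be tested, 13 of them higher in E0771 and 2 in AT-3, with a median of -6.26, or -3.12 with the 13 genes at 0 counts in a line set to their bounds. Of the 21, 12 were below 1 CPM in both lines. The genes that could be tested are those that reached enough counts in some group, and with no filter the median over all 39 listed genes was 0, with 15 called higher in E0771 and 2 in AT-3. Tdrd1, a tudor protein of the piRNA pathway in germ cells, stood at 97.8, 97.5 and 99.996 CPM in E0771 with 0 counts in AT-3, at least 8605-fold higher. Tex19.1, a germline and placental gene that restrains retrotransposons, stood at 114, 123 and 111 CPM in E0771 and 0.0231, 0.0211 and 0 CPM in AT-3, log2 fold change -12.77 ± 0.17 (adjusted p = 7.30e-22). Tex11, a meiotic gene of the X chromosome, stood at 43.9, 47.3 and 48.7 CPM in E0771, at least 4073-fold higher. In all 3 the AT-3 libraries were at or next to 0 and the E0771 libraries were close to one another. Dppa4 and Dppa2, paired factors of early embryos and germ cells, were at least 2934-fold and 492-fold higher in E0771 (33.5 ± 1.28 and 5.64 ± 0.0677 CPM). Rhox5, a reproductive homeobox gene of the X chromosome, stood at 293, 313 and 293 CPM in E0771 and 1.67, 1.6 and 1.83 CPM in AT-3, and Rhox1 was at least 2320-fold higher in E0771. Xlr3c was at least 3764-fold higher in E0771, but it has near-identical copies, and the counting could have split reads among them. Piwil2, of the same piRNA pathway, stood at 0.456 ± 0.21 CPM in AT-3 and 0.339 ± 0.136 CPM in E0771 and did not pass (adjusted p = 0.409).

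The promoters of 3 of these germline genes are shown because the genes were expressed in E0771 and at or near 0 in AT-3, again as the 250 bases before the start (RefSeq, GRCm38.p6) with CpG in capitals. Tdrd1 (chr19:56825959-56826208, plus strand) holds 11 CpG, Tex19.1 (chr11:121145893-121146142, plus strand) holds 15 and Rhox5 (chrX:37754358-37754607, plus strand) holds 4, so CpG content differed among germline genes with the same pattern of expression.
Tdrd1: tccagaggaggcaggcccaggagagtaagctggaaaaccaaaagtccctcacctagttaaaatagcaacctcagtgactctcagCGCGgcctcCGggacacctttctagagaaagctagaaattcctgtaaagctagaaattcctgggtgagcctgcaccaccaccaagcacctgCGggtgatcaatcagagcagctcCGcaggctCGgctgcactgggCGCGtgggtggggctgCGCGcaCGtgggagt
Tex19.1: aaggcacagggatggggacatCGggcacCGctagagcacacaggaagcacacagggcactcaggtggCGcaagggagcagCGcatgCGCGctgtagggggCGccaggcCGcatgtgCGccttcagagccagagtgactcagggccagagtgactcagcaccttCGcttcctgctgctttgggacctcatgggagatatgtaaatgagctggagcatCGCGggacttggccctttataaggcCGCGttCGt
Rhox5: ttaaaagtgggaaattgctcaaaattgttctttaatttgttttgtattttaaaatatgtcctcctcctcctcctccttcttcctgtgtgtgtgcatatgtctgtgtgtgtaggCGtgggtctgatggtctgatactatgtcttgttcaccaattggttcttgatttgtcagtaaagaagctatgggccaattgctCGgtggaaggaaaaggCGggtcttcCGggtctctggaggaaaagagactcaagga

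CpG content of promoters was then summarised for the genes held by 1 line, in a window of 300 bases from 250 before to 50 after the start. Of the 506 genes of at least 5 CPM in AT-3 and under 1% of that level in E0771 (replicate 2 left out), 379 had a promoter in the table, with a median observed over expected CpG ratio of 0.721. Of the 181 corresponding E0771 genes, 124 had one, with a median of 0.414. For genes of at least 5 CPM in AT-3 or in E0771 the medians were 0.804 (7792 promoters) and 0.803 (7618), and over all genes tested 0.715 (13003). A ratio of at least 0.6 was found in 67.5% of AT-3-held promoters and 27.4% of E0771-held ones, against 62.8% of all. Promoters of the E0771-held genes were thus poorer in CpG than those of expressed genes, and those of the AT-3-held genes lay between. The motif TATAAA, searched on both strands, was in 8.44% and 8.06% of the AT-3-held and E0771-held promoters and in 8.46% of all. The E-box CACGTG was in 9.76% and 8.06%, and in 9.44% of all. Among the promoters printed here, TATAAA occurred in the 300 bases of Krt8 and Tex19.1 and CACGTG in those of Tdrd1. These are descriptions of letters in a window, and methylation was not measured.

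**Figure D3:**
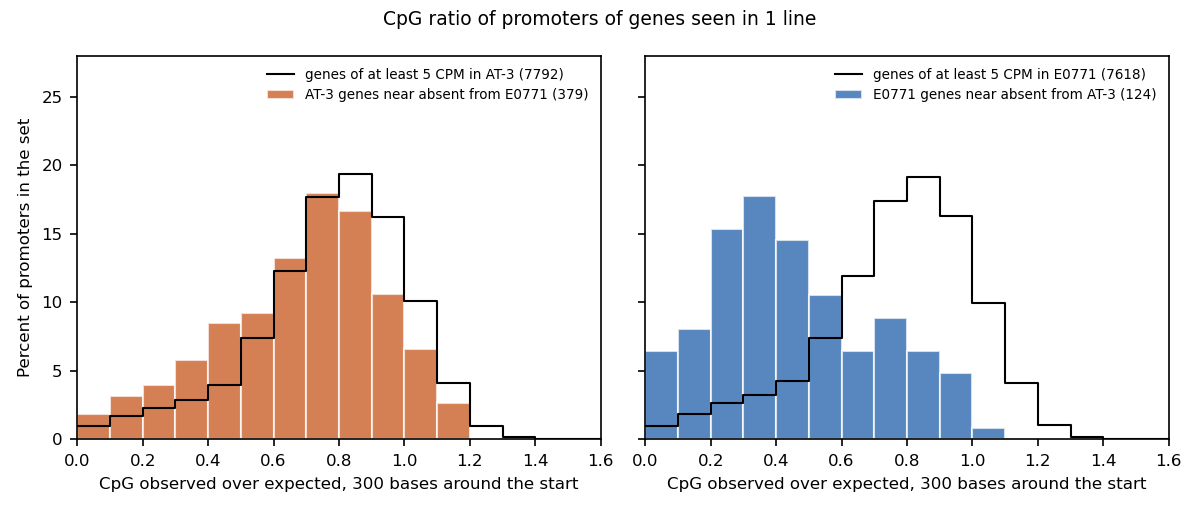
Histograms of the observed over expected CpG ratio (x axis) in 300-base promoters, as percent of promoters (y axis), for genes held by AT-3 (379) or by E0771 (124) and for all genes of at least 5 CPM in the same line. The E0771-held genes centre near 0.414 and the AT-3-held genes near 0.721, against 0.80 for expressed genes.

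Genes of imprinting and X inactivation, most of them expressed from 1 parental copy, differed in both directions, 13 of 22 tested being higher in AT-3 and 5 in E0771 (median 1.63, or 1.14 at bounds, and 0.70 without AT-3 replicate 2). Of 35 listed, only these 22 had enough counts to be tested, and 6 of them were below 1 CPM in both lines. Igf2, a fetal growth factor, stood at 11.4 ± 0.335 CPM in AT-3 and 0.223 ± 0.123 CPM in E0771. Plagl1, a zinc finger regulator of growth, and the adaptor Grb10 stood at 20.1 ± 2.05 and 11.4 ± 0.839 CPM in AT-3 against 0.0192, 0.253 and 0 and 0.0192, 0.105 and 0 CPM in E0771. Phlda2, which limits placental growth, was higher in E0771, at 46.5, 43.7 and 41.6 CPM against 0.393, 0.484 and 0.495 CPM.

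Matrix genes differed chain by chain. Among fibrillar and other non-basement collagens, 14 of 36 were higher in AT-3 and 13 in E0771, and the median of -0.03 turned to 0.38 without E0771 replicate 2. Col1a1, a chain of type I collagen, stood at 2.96, 2.28 and 3.12 CPM in AT-3 and 98.9, 98.7 and 107 CPM in E0771, log2 fold change -5.20 ± 0.12 (adjusted p = 7.77e-18). Col3a1, which forms mixed fibrils with type I, stood at 16.9, 19.9 and 20.2 CPM in AT-3 and 517, 511 and 541 CPM in E0771, log2 fold change -4.78 ± 0.15. Both were many-fold higher in E0771, whereas Col1a2, the partner chain of Col1a1, was higher in AT-3, at 3.17 ± 0.0977 CPM against 0.887 ± 0.11 CPM. Toward AT-3, the fibril-associated Col12a1 stood at 528, 537 and 501 CPM against 2.83, 10.5 and 3.39 CPM, a log2 fold change of 6.56 (7.37 without E0771 replicate 2). Col8a1 (5.27), Col27a1 (5.13) and Col6a3 (3.71) were higher in AT-3 as well. Col6a1, whose product assembles with that of Col6a3 in type VI collagen, was higher in E0771 (-0.58 ± 0.092), so chains of 1 trimer differed in opposite directions.

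In basement membrane, 19 of 30 genes were higher in AT-3 and 7 in E0771 (median 1.19). Col4a5 and Col4a6, chains of type IV collagen, stood at 232 ± 3.72 and 72.8 ± 2.96 CPM in AT-3 and 0, 2.97 and 0.0196 and 0, 0.779 and 0 CPM in E0771. The common chain Col4a1 was abundant in both, at 1842 ± 40.8 against 1271 ± 38.5 CPM (log2 fold change 0.53 ± 0.038). The laminin chain Lamc1 did not pass (adjusted p = 0.0633, and 0.0196 with DESeq2). AT-3 thus had the minor type IV chains Col4a5 and Col4a6, which were at or near 0 in E0771 replicates 1 and 3. Smoc1, a calcium-binding matrix protein, was the clearest gene of this list on the other side, at 37.1 ± 0.606 CPM in E0771 and 0.141 ± 0.0672 CPM in AT-3.

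Matricellular proteins, proteoglycans and matrix enzymes were mostly higher in AT-3. Of 73 glycoprotein, proteoglycan and elastic fibre genes, 44 were higher in AT-3 and 16 in E0771, 40 and 10 by at least 4-fold (median 2.64). Thbs1 (thrombospondin 1), which activates latent TGF-beta, stood at 4166, 4198 and 3962 CPM in AT-3 and 0.558, 57.3 and 0.725 CPM in E0771, 6422-fold higher without E0771 replicate 2. Postn (periostin), which binds collagen and integrins, stood at 284, 303 and 299 CPM in AT-3 and 0.0192, 4.26 and 0.0392 CPM in E0771. Both were high in all AT-3 libraries and under 1 CPM in E0771 replicates 1 and 3. Among 78 proteases, inhibitors and crosslinking enzymes, 50 were higher in AT-3 and 19 in E0771 (median 1.47). Lox (lysyl oxidase), which crosslinks collagen and elastin, stood at 259, 291 and 294 CPM in AT-3 and 0.0385, 4.22 and 0 CPM in E0771. Without replicate 2 it was 14475-fold higher in AT-3, a ratio that rests on a few E0771 counts and is imprecise. The metalloprotease inhibitor Timp3 and the hyaluronan synthase Has2 stood at 277 ± 8.84 and 91.6 ± 2.89 CPM in AT-3 against 0.0385, 3.42 and 0 and 0, 0.937 and 0 CPM in E0771. Serpinh1, the collagen chaperone, was higher in E0771 by a log2 fold change of -0.45 ± 0.051, and the protease Adamts20 had 0 counts in AT-3 and 5.53 ± 0.0256 CPM in E0771.

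Integrins, the receptors for these ligands, were higher in AT-3 in 12 of 25 tested and in E0771 in 8 (median 0.70). Itgav, which pairs with Itgb5 to bind vitronectin, stood at 422, 419 and 403 CPM in AT-3 and 82.4, 87.1 and 86.2 CPM in E0771, log2 fold change 2.28 ± 0.06. Its partner Itgb5 stood at 467, 494 and 514 CPM in AT-3 and 65.2, 65.4 and 58.2 CPM in E0771, 2.97 ± 0.06. Laminin-binding Itga6 stood at 184, 169 and 179 CPM in E0771 and 77.5, 69.6 and 69.96 CPM in AT-3, -1.29 ± 0.065, and its hemidesmosomal partner Itgb4 at 11.8, 9.43 and 9.29 against 1.18, 0.864 and 0.953 CPM, -3.35 ± 0.19. The vitronectin receptor pair was thus higher in AT-3 and the epithelial laminin receptor pair in E0771. Each was without overlap, as for 75.7% of all genes. Itga7, another laminin receptor chain known from muscle, and Itga11, a collagen receptor chain, were higher in AT-3 (log2 fold changes 3.85 and 6.65, and 3.95 and 7.23 without E0771 replicate 2), and Itgb7, known from lymphocytes, was higher in E0771 (-7.25). Itga1 stood at 24.5 ± 1.85 and 24.5 ± 2.53 CPM and did not pass (adjusted p = 1.0).

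Among focal adhesion adaptors and caveolar genes, 21 of 43 were higher in AT-3 and 17 in E0771 (median 0.44). Cavin1, the coat protein needed to form caveolae, stood at 20.6, 21.5 and 23.5 CPM in AT-3 and 744, 799.7 and 790.2 CPM in E0771, log2 fold change -5.15 ± 0.092. Cavin2, which shapes the same coat, stood at 421, 420.1 and 416 CPM in AT-3 and 2.54, 9.62 and 3.94 CPM in E0771, 6.30 ± 0.39 (7.0 without E0771 replicate 2). The coat genes therefore went opposite ways. The actin regulators Enah and Nedd9 were higher in AT-3 (log2 fold changes 6.28 and 7.17, and 7.04 and 8.73 without E0771 replicate 2).

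Cell to cell adhesion genes were higher in AT-3 more often than in E0771. Of 33 cadherins and protocadherins tested, 20 were higher in AT-3 and 3 in E0771 (median 2.51). The list has 44 genes, and 16 of the 33 tested were below 1 CPM in both lines. Pcdh18, Pcdh19 and the giant cadherin Fat4, which acts in tissue polarity, stood at 96.4 ± 5.51, 86.9 ± 2.51 and 38.3 ± 3.51 CPM in AT-3 and at 0.0577 CPM or less in E0771 replicates 1 and 3. Cdh13, a cadherin anchored to the membrane by lipid, had 1 count in AT-3 and stood at 49.3, 47.8 and 48.3 CPM in E0771, 12714-fold higher (95% counting interval 2281 to 502193). Among immunoglobulin-type and other adhesion molecules, 30 of 55 were higher in AT-3 and 16 in E0771 (median 1.28). Ncam1, a homophilic adhesion molecule of nerve and muscle, stood at 189 ± 3.94 CPM in AT-3 and 0.144, 2.68 and 0.176 CPM in E0771. Cd34, a sialomucin of progenitor and stromal cells, stood at 73.99 ± 1.4 CPM against 0.0192, 1.12 and 0 CPM. The connexin gene Gja1 was higher in E0771 by a smaller amount (-0.55 ± 0.069). Ephrins, semaphorins and their receptors were higher in AT-3 in 35 of 65 and in E0771 in 12 (median 1.22, or 0.94 at bounds), with Epha8 on the E0771 side (18.5 ± 0.405 against 0.0218 ± 0.0211 CPM).

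SRF and its MRTF coactivators, which carry actin dynamics to transcription and are the subject of the series, were expressed in both lines. Endogenous Mrtfa stood at 160.3, 161 and 159 CPM in AT-3 and 57.1, 58.9 and 63.4 CPM in E0771, log2 fold change 1.42 ± 0.043 (adjusted p = 8.25e-17). Its paralogue Mrtfb differed less, at 71.5 ± 3.93 against 56.8 ± 1.03 CPM (0.33 ± 0.053). Srf stood at 186, 179.7 and 192 CPM in AT-3 and 168, 169 and 150.2 CPM in E0771, 0.20 ± 0.073 on the log2 scale (adjusted p = 0.0215). The Srf call was lost with library totals (adjusted p = 0.163) and without AT-3 replicate 1 (0.0591), AT-3 replicate 3 (0.0964) or E0771 replicate 3 (0.152). Of 40 cytoskeletal targets of MRTF and SRF, 33 were higher in AT-3 and 4 in E0771, 14 and 2 by at least 4-fold (median 1.29). Fhl1, a LIM protein of muscle, stood at 314 ± 4.87 CPM in AT-3 and 0, 4.62 and 0.0588 CPM in E0771, and Tagln, an actin-binding protein of smooth muscle, at 6.08 ± 0.351 CPM and 0.0192, 0.421 and 0.010 CPM. Beta-actin (Actb) was higher in AT-3 by 0.5 ± 0.049 on the log2 scale. The LIM genes Pdlim1 (1.45 ± 0.332 against 71.4 ± 3.63 CPM) and Tgfb1i1 (0.397 ± 0.0569 against 25.1 ± 0.614 CPM) went the other way, so the list did not move in 1 direction. Acta2 and calponin, described among basal genes, belong to this list too.

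**Figure D4:**
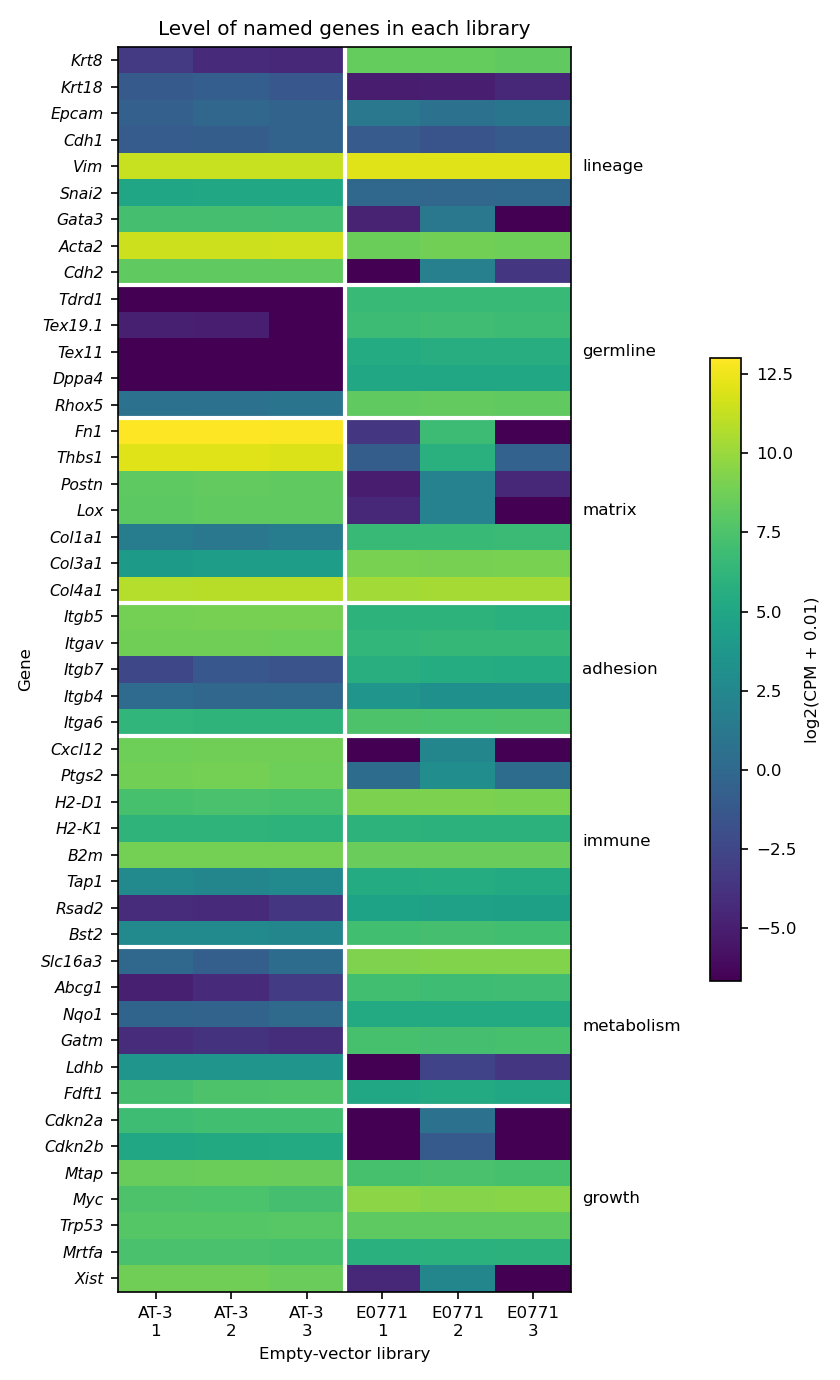
Rows are 47 genes named in the text, grouped by theme, and columns are the 3 AT-3 and 3 E0771 libraries, with colour giving log2 of CPM + 0.01. Genes held by AT-3, such as Cxcl12, have a low value in E0771 replicate 2 and 0 or near 0 in replicates 1 and 3, and genes held by E0771, such as Tdrd1, are near 0 in every AT-3 library.

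Interferon-stimulated genes, the antiviral program induced by type I interferon, were mostly higher in E0771. Of 67 tested, 43 were higher in E0771 and 15 in AT-3, 17 and 7 by at least 4-fold (median -0.89). Bst2 (tetherin), which holds budding virus at the membrane, stood at 130.0, 147 and 133 CPM in E0771 and 6.26, 6.5 and 5.1 CPM in AT-3, log2 fold change -4.52 ± 0.12 (adjusted p = 1.13e-15). Rsad2 (viperin), which blocks viral replication, stood at 26.4, 24.7 and 22.9 CPM in E0771 and 0.0463, 0.0421 and 0.0743 CPM in AT-3, -8.81 ± 0.24. The lines did not overlap for these genes, as for 75.7% of all genes, and AT-3 had next to none of Rsad2. Oas3, a sensor that makes the activator of RNase L, had 2 counts in AT-3 and 9.79 ± 1.2 CPM in E0771, 1281-fold higher (95% counting interval 354 to 10586). Cmpk2 and Trim30a were higher in E0771 by log2 fold changes of -5.82 and -6.07, and Oas1a by -7.29, although reads of the Oas1 copies may have been split. Ly6e, at 276 ± 8.37 and 285 ± 6.69 CPM, did not pass (adjusted p = 0.338).

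Genes of MHC class I and antigen processing differed in both directions. Of 30 genes, 16 were higher in E0771 and 10 in AT-3 (median -0.54). Tap1, a subunit of the peptide transporter, stood at 6.46, 5.27 and 6.25 CPM in AT-3 and 43.9, 44.9 and 40.2 CPM in E0771, log2 fold change -2.84 ± 0.15. Psmb8, a subunit of the immunoproteasome, stood at 1.42, 1.45 and 1.56 CPM in AT-3 and 17.4, 17.4 and 16.2 CPM in E0771, -3.52 ± 0.17. Nlrc5, the class I transactivator, stood at 8.28 ± 0.486 CPM in AT-3 and 26.97 ± 2.0 CPM in E0771. These 3 genes were higher in E0771, without overlap, as for 75.7% of all genes. Heavy chain H2-D1 stood at 156, 161 and 153 CPM in AT-3 and 554, 553 and 533 CPM in E0771 (-1.80 ± 0.038), while H2-K1 stood at 69.7, 68.4 and 67.96 and 67.6, 64.3 and 63.3 CPM and did not pass (adjusted p = 0.101, and 0.0145 with DESeq2). H2 genes are near copies, and reads between them may have been split. B2m, the shared light chain, was higher in AT-3 by 0.39 ± 0.034 on the log2 scale. Of 12 MHC class II genes, 5 were higher in E0771 and 1 in AT-3, with Cd74, the invariant chain, at 0.17 ± 0.0488 CPM in AT-3 and 0.692 ± 0.056 CPM in E0771.

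Ligands that tumour cells show to T and NK cells were more often higher in E0771, 17 of 36 against 9 in AT-3 (median -0.79). Cd274 (PD-L1) was low in both, at 1.76, 1.81 and 2.54 CPM in E0771 and 0.81, 0.642 and 0.829 CPM in AT-3, log2 fold change -1.42 ± 0.23 (adjusted p = 1.58e-05). Vsir (VISTA), another inhibitory ligand, stood at 33.8, 36.96 and 39.5 CPM in E0771 and 0.324, 0.527 and 0.272 CPM in AT-3, -6.59 ± 0.31. Raet1d, a ligand of the NK receptor NKG2D, stood at 23.8 ± 0.196 CPM in E0771 and 0.535 ± 0.0196 CPM in AT-3, with the reservation that Raet1 genes are near copies. Inhibitory and activating ligands were thus both on the E0771 side. Lgals3 (galectin 3), Icosl and Cd40 were higher in E0771 by log2 fold changes of -3.82, -3.26 and -6.20.

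Chemokine, cytokine and receptor genes were on the AT-3 side in 43 of 74 and on the E0771 side in 21 (median 0.96). Beside Cxcl12, the IL-33 receptor Il1rl1 stood at 567, 593 and 579 CPM in AT-3 and 0.924, 9.84 and 1.18 CPM in E0771. Ptgs2 (cyclooxygenase 2), which starts prostaglandin synthesis, stood at 460.0, 481 and 405 CPM in AT-3 and 1.24, 7.78 and 1.21 CPM in E0771, whereas Ptges, the synthase that completes prostaglandin E2, stood at 0.278, 0.337 and 0.347 CPM in AT-3 and 43.1, 46.05 and 44.4 CPM in E0771. Ptgs2 was thus higher in AT-3 and Ptges in E0771, although every E0771 library had Ptgs2 above 1 CPM. Il13ra1 had 0 counts in E0771 replicates 1 and 3 and 34.7 ± 1.95 CPM in AT-3. Among pattern recognition and NF-kB genes 23 of 52 were higher in AT-3 and 19 in E0771 (median 0.14). Tlr5, the flagellin receptor, had 0 counts in AT-3 and 14.9 ± 0.182 CPM in E0771, and the DNA sensor Aim2 stood at 40.8 ± 0.436 against 0.723 ± 0.247 CPM. The lipoprotein receptor Tlr2 was higher in AT-3, at 24.5 ± 1.77 against 2.29 ± 0.183 CPM, as was its coreceptor Cd14, at 11.9 ± 1.48 against 1.28 ± 0.108 CPM. Complement genes C3 and C2 were higher in E0771 (-3.76 and -6.09 on the log2 scale). Of the complement and coagulation list, 17 of 34 were higher in AT-3 and 13 in E0771.

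Genes of glucose use and the hypoxia response were more often higher in E0771 than in AT-3. Of 52 genes tested, 31 were higher in E0771 and 14 in AT-3 (median -0.57). Slc16a3 (MCT4), which exports lactate, stood at 584, 631 and 623 CPM in E0771 and 0.995, 0.611 and 1.21 CPM in AT-3, log2 fold change -9.37 ± 0.22 (adjusted p = 2.35e-14). Slc2a3 (GLUT3), a glucose transporter, stood at 30.3, 30.2 and 29.02 CPM in E0771 and 0.463, 0.221 and 0.495 CPM in AT-3, -6.26 ± 0.25. Pdk1, which keeps pyruvate out of the citrate cycle, stood at 119 ± 2.4 CPM in E0771 and 20.5 ± 1.4 CPM in AT-3. Transcripts of Slc16a3, Slc2a3 and Pdk1 were thus each on the E0771 side, without overlap, as for 75.7% of all genes. Glucose uptake, lactate export and pyruvate use were not measured. Adm and Car12, hypoxia-responsive genes for a vasodilator peptide and a carbonic anhydrase, were higher in E0771, with log2 fold changes of -8.25 and -5.38. Ldhb, which favours lactate use, was on the AT-3 side, at 12.04 ± 0.198 CPM against 0, 0.147 and 0.0784 CPM. The glycolytic enzymes Eno1 and Pgk1 differed little (-0.23 ± 0.04 and -0.57 ± 0.046).

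Most mitochondrial genes differed by small amounts. Of 34 citrate cycle genes 14 were higher in AT-3 and 13 in E0771, with 0 past 4-fold in either direction, and the median of 0.032 became -0.047 with library totals. Of 75 nuclear-encoded respiratory chain genes, 35 were higher in AT-3 and 22 in E0771 (median 0.12). Past 4-fold were 0 toward AT-3 and 2 toward E0771, Ndufa4l2 (log2 fold change -2.12) and Cox7a1 (-2.27), named after their values were seen and both below 1 CPM in each line. Ndufa1 and Ndufb11, subunits of complex I, were higher in AT-3 by 1.15 ± 0.077 and 1.0 ± 0.05. Mdh2 and Atp5b did not pass (adjusted p = 0.671 and 0.105, the latter 9.42e-04 with DESeq2). The mitochondrial genome was mixed, with 3 of 13 genes higher in AT-3 and 3 in E0771, and mt-Nd1 the widest at 1.16 ± 0.077.

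Lipid genes were split by pathway. Cholesterol synthesis and uptake genes were higher in AT-3 in 24 of 30 and in E0771 in 6 (median 1.04). Fdft1 (squalene synthase) stood at 149, 184 and 191 CPM in AT-3 and 35.7, 41.4 and 36.01 CPM in E0771, log2 fold change 2.21 ± 0.11. Hsd17b7, which acts later in the sterol pathway, stood at 98.6 ± 14.6 CPM in AT-3 and 19.2 ± 0.866 CPM in E0771. Srebf2, the regulator of the pathway, was higher in AT-3 by 0.53 ± 0.072. Enzymes and regulator were thus higher in AT-3. Abcg1, which exports cholesterol, went the other way, at 134, 122 and 125 CPM in E0771 and 0.0231, 0.0421 and 0.099 CPM in AT-3. Fatty acid genes were balanced, with 28 higher in each line of 66 tested. Fabp5, a fatty acid carrier, was on the AT-3 side (59.1 ± 2.55 CPM against 0, 1.31 and 0 CPM) and the transporter Slc27a1 on the E0771 side (129.7 ± 10.1 against 2.73 ± 0.509 CPM).

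Amino acid, one-carbon and nucleotide genes were mostly higher in E0771. In serine, one-carbon and nucleotide synthesis 32 of 50 were higher in E0771 and 10 in AT-3 (median -0.58). The purine enzymes Pfas, Gart and Impdh1 were higher in E0771, with log2 fold changes of -1.67 ± 0.054, -1.36 ± 0.068 and -1.6 ± 0.052, as was the folate enzyme Mthfd1 at -1.45 ± 0.062. Cth, which makes cysteine from cystathionine, was higher in AT-3, at 5.6, 5.59 and 5.73 CPM against 0.173, 0.211 and 0.137 CPM. In amino acid use and transport 39 of 63 were higher in E0771 and 15 in AT-3 (median -0.71). Gatm, the first enzyme of creatine synthesis, stood at 154, 151 and 157 CPM in E0771 and 0.0463, 0.0632 and 0.0495 CPM in AT-3, -11.46 ± 0.16. Prodh, which oxidises proline, stood at 17.7 ± 0.967 CPM in E0771 and 0.73 ± 0.178 CPM in AT-3. Redox and detoxification genes were balanced, 29 of 71 higher in AT-3 and 33 in E0771, but members differed widely. Nqo1, a quinone reductase, stood at 40.9, 40.3 and 41.01 CPM in E0771 and 0.798, 0.769 and 1.11 CPM in AT-3, whereas the carbonyl reductases Cbr1 and Cbr3 stood at 13.2 ± 0.532 and 13.4 ± 1.19 CPM in AT-3 and 0.346, 0.316 and 0.265 and 0, 0.0632 and 0.0392 CPM in E0771. Of retinoid, aldehyde and drug metabolism, 22 of 49 were higher in AT-3 and 20 in E0771. The aryl hydrocarbon receptor Ahr and its target Cyp1b1 were both on the AT-3 side, at 12.96 ± 0.429 and 93.9 ± 0.462 CPM, with 0 counts in E0771 replicates 1 and 3.

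The Cdkn2a and Cdkn2b genes, whose products inhibit CDK4 and CDK6 (Cdkn2a also encodes ARF, a stabiliser of p53), were on in AT-3 alone. Cdkn2a stood at 120.4, 131 and 135 CPM in AT-3 and 0, 1.62 and 0 CPM in E0771, and without E0771 replicate 2 it was at least 8832-fold higher in AT-3. Cdkn2b stood at 32.6, 39.01 and 42.2 CPM in AT-3 and 0, 0.474 and 0 CPM in E0771, at least 2601-fold higher without that replicate. In E0771 the 2 genes had counts in replicate 2 alone, the library that held about 1.35% of the AT-3 level of AT-3 genes. They are neighbours, Cdkn2a at chromosome 4, 89274471 to 89294653 and Cdkn2b at chromosome 4, 89306299 to 89311039 (GRCm38). Mtap, which lies on the same chromosome (chromosome 4, 89137122 to 89181081) and was named after its values were seen, was expressed in both, at 350.4, 376 and 363 CPM in AT-3 and 156, 163 and 158 CPM in E0771. Counts of RNA do not tell a lost gene from a silent one. The RefSeq start of Cdkn2b lies slightly inside the gene bounds given here. The 250 bases before that start (chr4:89311033-89311282, minus strand, GRCm38.p6), with 12 CpG in capitals, are shown because the gene had 0 counts in E0771 replicates 1 and 3.
Cdkn2b: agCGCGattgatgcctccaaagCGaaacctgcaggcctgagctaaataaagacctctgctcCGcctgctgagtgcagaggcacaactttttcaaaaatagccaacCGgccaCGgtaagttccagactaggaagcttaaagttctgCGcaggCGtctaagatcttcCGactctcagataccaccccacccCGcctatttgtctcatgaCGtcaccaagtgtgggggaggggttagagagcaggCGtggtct

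Other growth regulators differed in degree. Myc stood at 184, 173 and 151 CPM in AT-3 and 757, 702 and 713 CPM in E0771, log2 fold change -2.10 ± 0.18 (adjusted p = 1.00e-07). Trp53 was slightly higher in E0771 (-0.29 ± 0.072). Cdkn1a (p21), a p53 target that halts the cycle, stood at 9.88, 7.37 and 8.84 CPM in AT-3 and 53.3, 48.7 and 53.4 CPM in E0771, -2.58 ± 0.13. Of these genes Myc and Cdkn1a were several-fold higher in E0771, and Trp53 differed by under 1.5-fold. Perp, a p53 target of desmosomes, was on the AT-3 side, at 285 ± 5.93 CPM against 0.0385, 3.96 and 0 CPM. The p53 target list was even, with 15 of 33 higher in each line. Of 74 tumour suppressors and oncogenes, 36 were higher in AT-3 and 24 in E0771 (median 0.13).

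DNA replication genes were more often higher in E0771, 24 of 42 against 9 in AT-3 (median -0.29). Cdt1, which licenses origins, was higher in E0771 with a log2 fold change of -2.05 ± 0.058, as were Mcm10 at -1.53 ± 0.054 and the polymerase subunit Pold1 at -1.36 ± 0.061. Among G2 and M phase genes 17 of 51 were higher in AT-3 and 22 in E0771, and the median of -0.018 turned positive with DESeq2's size factors (0.01). Mki67, the proliferation antigen, stood at 548, 497 and 466 CPM in AT-3 and 143, 166 and 149.6 CPM in E0771, 1.72 ± 0.095, while the securin gene Pttg1 stood at 5.74 ± 0.699 CPM in AT-3 and 44.6 ± 1.97 CPM in E0771. Genes of the cycle thus went both ways. Cytosolic ribosomal protein genes were higher in AT-3 in 18 of 79 and in E0771 in 33, none by 4-fold (median -0.039, and 0.03 with the stricter filter).

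In the 3 lists of signalling genes more members were higher in AT-3 than in E0771. Receptor tyrosine kinases and ligands were higher in AT-3 in 42 of 74 and in E0771 in 17 (median 1.36). Of the ligands of the EGF receptor, Tgfa stood at 7.33, 5.27 and 6.29 CPM in AT-3 and 0, 0.0421 and 0 CPM in E0771, and Ereg (epiregulin) had 0 counts in AT-3 and 17.2, 18.4 and 18.1 CPM in E0771, at least 1562-fold higher. Nrg1, a ligand of ERBB3, stood at 17.5 ± 0.911 CPM in AT-3 and 0.0192, 0.211 and 0.137 CPM in E0771, and Ror2, a Wnt5a receptor, at 38.8 ± 1.8 CPM and 0.0385, 0.505 and 0 CPM. Wnt, Notch and Hedgehog genes were higher in AT-3 in 47 of 77 and in E0771 in 18 (median 0.85). The Wnt receptors Fzd7, Fzd8 and Fzd3 stood at 40.4 ± 2.86, 20.6 ± 1.56 and 14.2 ± 0.338 CPM in AT-3, with 0 counts in E0771 replicates 1 and 3. The ligand Wnt10b stood at 58.5, 56.1 and 51.4 CPM in E0771 and 0.0463, 0.0211 and 0 CPM in AT-3, so these receptors and this ligand were in different lines. TGF-beta, activin and BMP genes were higher in AT-3 in 44 of 63 and in E0771 in 12 (median 0.98). The secreted BMP antagonists Grem1 and Nog stood at 54.3 ± 4.01 and 15.2 ± 1.43 CPM in AT-3 with 0 counts in E0771 replicates 1 and 3, and the feedback inhibitor Pmepa1 at 318 ± 28.9 CPM against 0.0385, 4.34 and 0 CPM.

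Ion transport genes, which the series title raises, differed gene by gene. Potassium channel genes were higher in AT-3 in 16 of 38 tested and in E0771 in 9, and the median of 0.27 was 0.80 without E0771 replicate 2, 1.01 and 0.97 without AT-3 replicate 1 or 3, and -0.91 with the stricter filter. Kcnn4, the calcium-activated channel, stood at 15.9, 15.2 and 16.8 CPM in AT-3 and 114.9, 119.7 and 109.6 CPM in E0771, -2.85 ± 0.062. Kcnab2, an accessory subunit, stood at 0.393, 0.126 and 0.297 CPM in AT-3 and 187, 188 and 189 CPM in E0771, -9.45 ± 0.21. Kcnh2 and Kcnq5, voltage-gated channels, were higher in E0771 too (-6.79 and -6.32). These 4 genes were on the E0771 side, and the modulatory subunit gene Kcnf1 was on the AT-3 side (7.0 ± 0.899 CPM against 0.0192, 0.116 and 0.098 CPM). Over the whole list, 15 genes were at least 4-fold higher in AT-3 and 7 in E0771. Most of the list was low, with 26 of the 38 below 1 CPM in both lines. Calcium channel, pump and store genes were higher in AT-3 in 24 of 56 and in E0771 in 12 (median 0.12). Pkd2, a cation channel of the endoplasmic reticulum and cilium, stood at 242, 241 and 242 CPM in AT-3 and 34.9, 39.1 and 37.3 CPM in E0771, 2.70 ± 0.049. Slc8a1, the sodium-calcium exchanger, had 0 counts in E0771 and 5.2, 4.69 and 5.29 CPM in AT-3, at least 506-fold higher, whereas the calcium pump Atp2b4 was higher in E0771 (35.3 ± 1.6 against 3.41 ± 0.613 CPM). The TRP channels Trpv4 and Trpv2 were exchanged, the first higher in AT-3 (3.04) and the second in E0771 (-4.80). The stretch-gated channel Piezo1 was higher in AT-3 by 0.36 ± 0.071. Of sodium pump, cotransport and volume channel genes 22 of 45 were higher in AT-3 and 16 in E0771.

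**Figure D5:**
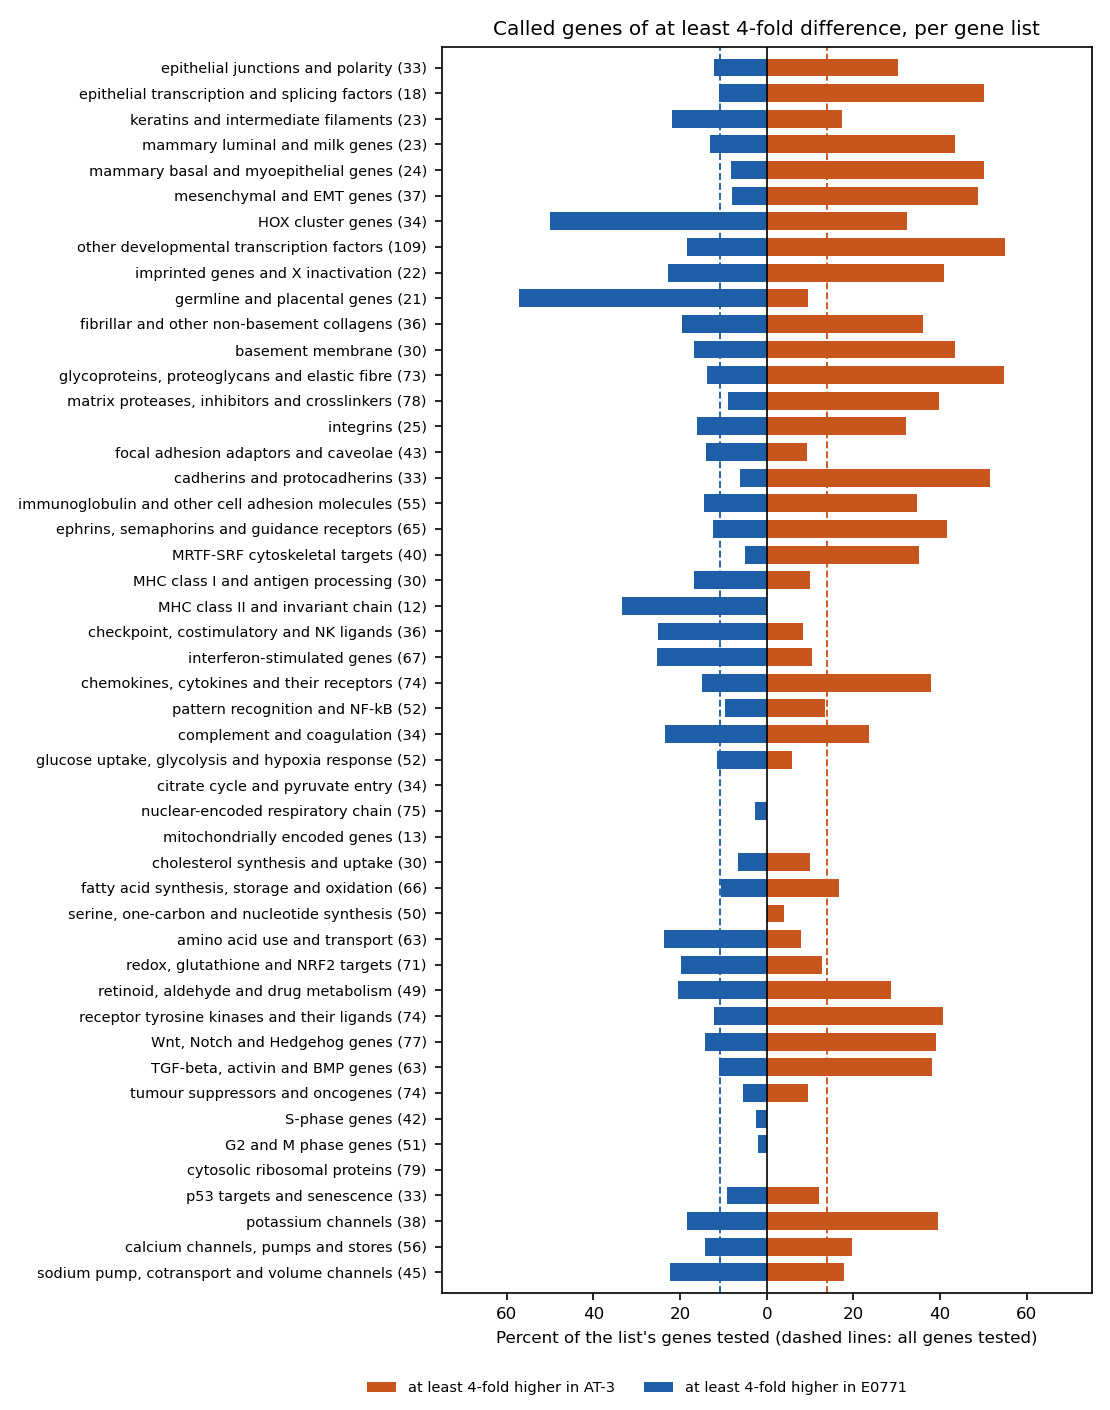
For each of 48 gene lists, bars to either side give the percent of tested members called and at least 4-fold higher in AT-3 or in E0771, with dashed lines at the values for all genes (14.0% and 10.8%). Ribosomal and citrate cycle genes have none past 4-fold, and the germline list, of which 21 of 39 members passed the filter and were tested, has 12 higher in E0771.

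X-linked genes and Xist, the RNA that coats and silences an X chromosome, also differed. Xist stood at 419, 423 and 368 CPM in AT-3 and 0.0385, 5.16 and 0 CPM in E0771, 20825-fold higher in AT-3 without E0771 replicate 2. Its antisense partner overlaps it, and the strand setting of the counting is not given in the sources used here. AT-3 had the RNA in every library and E0771 lacked it in replicates 1 and 3 but for 4 counts. Among 392 X-linked genes with a mean of at least 1 CPM, 241 were higher in AT-3 and 108 in E0771, with a median log2 fold change of 0.63, against -0.013 for all 11719 such genes with a position. With Y238A MRTFA the X median was 0.66. The germline genes Rhox5, Rhox1, Tex11 and Xlr3c, all X-linked, went against this direction. Kdm6a, an X-linked histone demethylase that escapes silencing, stood at 49.1, 52.3 and 53.98 CPM in AT-3 and 5.37, 6.95 and 5.17 CPM in E0771, 3.15 ± 0.12.

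Autosomes differed in their medians as well. Chromosomes 12 (-0.54), 11 (-0.44), 6 (-0.36) and 7 (-0.28) lay toward E0771, and 16 (0.28), 9 (0.24), 17 (0.22) and 5 (0.19) toward AT-3. With Y238A MRTFA the same chromosomes had medians of -0.42, -0.36, -0.36, -0.31, 0.33, 0.20, 0.12 and 0.24, with the same signs. Along the chromosomes, in runs of 25 neighbouring genes of at least 1 CPM, the widest run toward AT-3 was from Fam221a to Mturn on chromosome 6 (49367739 to 54703851, GRCm38), which holds the Hoxa cluster, with a median of 2.94 and 16 of 25 genes called higher in AT-3 and 6 in E0771. Under Y238A the median of this run was 1.33. In part the run restates the Hoxa differences given above, and its empty-vector median is the value of Hoxa9. Over all 11239 runs the 1st and 99th percentiles of the median were -0.92 and 1.09, so the runs named here are picked extremes. The widest toward E0771 was from Relb to Phldb3 on chromosome 7 (19606217 to 24629297), with a median of -1.23 and 22 of 25 genes called higher in E0771. On chromosome 11, a run from Ccdc157 to Pgam2 (4141123 to 5803733) lay toward AT-3 with a median of 1.35, against the direction of its chromosome. Copy number was not measured, and whether it differs at these places was not tested.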

How the data were processed

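RNA of AT-3 and E0771 cells was sequenced after RNeasy extraction and NuGen Universal Plus mRNA library preparation, per the labels' protocols. The deposited table holds the authors' raw counts per gene, made with STAR and featureCounts on GRCm38 per the submitters' processing notes, with no versions; the annotation release and strand setting are not given in the sources used here. It has 32286 entries, of which 32158 have a symbol, 127 have an ID alone and 1 is the construct. Genes were analysed by Ensembl ID, and positions are those of GENCODE on GRCm38.

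Library totals of the 6 libraries were 81963607 to 97984760 counts, with 14010 to 14600 genes at 10 counts or more. Even numbers made up 62.2% to 63.9% of nonzero counts, and 83.2% to 85.5% of counts of 1 or 2 were 2, so each fragment may have been counted through both of its reads. Replicates of a group differed beyond sampling noise, and none was a duplicate of another.

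Tests used edgeR 4.0.16 (R 4.3.3). Its filterByExpr, with 6 groups, a minimum count of 10 and a minimum total of 15, kept 17841 genes. TMM scaling and a robust quasi-likelihood F test followed in 1 fit of all 18 libraries with 12 residual degrees of freedom. Benjamini-Hochberg adjustment ran over the whole table, with a threshold of 0.05. Data simulated with set fold changes were used to test the method. Only a small share of genes was changed there, evenly up and down, whereas 72.0% of genes were called here. The simulation therefore does not cover the scaling in this comparison. Bounds for genes at 0 counts use 3 counts over the group (0.0114 CPM in AT-3 and 0.00997 CPM in E0771). Where an E0771 library is left out, the 3 counts are taken over the remaining ones, so the floor is higher. Genes with 1 to 3 counts have exact 95% counting intervals. Bounds and intervals cover counting error only.

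The members and the 48 gene lists were chosen with earlier results of these data known. Genes named were a set of anchors named whatever their values, the 15 widest differences in each direction at 20 CPM or more (and, chosen after seeing the data, the 15 widest toward AT-3 without E0771 replicate 2), and per list up to 6 called members at 5 CPM or more and up to 2 that did not pass or differed by under 1.5-fold; fewer are named for room, and a few are not reported here. Krt19, Acta2 and Mtap, and HOX genes given with their cluster, were named after their values were seen. Promoters came from RefSeq (GRCm38.p6), and genes without an entry were left out.

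The alternatives tried were the 6 libraries fitted alone, DESeq2 1.42.0, edgeR with DESeq2 size factors, scaling by library totals, the low-count filter dropped or tightened (1 CPM in 3 libraries, a mean of 50 counts), a replicate block, halved counts, an added fold limit (log2 of 1 either way), glmTreat, each library left out in turn, and the 4 libraries that held most of the other line's transcripts left out together. After seeing the data, a count over genes of at least 1 CPM was added.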

Additional observations from a re-analysis of the deposited data

How the results depend on the processing

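The count of 12847 genes between the lines was 12992 with DESeq2, and an added fold limit (log2 of 1 either way) left 6910, while glmTreat left 5619. Leaving out each library in turn gave 12375 to 12518. Without E0771 replicate 3 more genes were higher in E0771 (6231) than in AT-3 (6190), as with library totals. Among genes of at least 1 CPM, an alternative chosen after seeing the data, 9882 of 11742 passed (84.2%), 4894 higher in AT-3 and 4988 in E0771. The count under Y238A lay between 12918 and 13143, and under wild-type MRTFA between 13780 and 13989, when libraries were left out. The 68 genes seen in AT-3 alone became 391 without E0771 replicate 2 and 2 at a mean of at least 5 CPM. The 89 seen in E0771 alone became 86 and 33. With the replicate number as a block 12839 genes passed (12046 in the 6 libraries alone), 13259 under Y238A and 14225 under wild-type MRTFA. In the 6 libraries alone with the block, Cxcl12, Sema3e, Cdh2, Fn1, Cd24a, Col4a5, Thbs1, Postn, Lox, Timp3, Fhl1, Perp, Pmepa1 and Xist did not pass (adjusted p = 0.0542 to 0.131). Deviations of same-numbered empty-vector libraries of the lines correlated at 0.130, 0.029 and 0.079 over genes, and each library correlated best with its own number. Under Y238A the same-numbered pairs correlated at 0.227, 0.006 and 0.200, and under wild-type MRTFA at 0.018, -0.017 and 0.122. This is a hint from the data and not the design, and whether same-numbered libraries belong together is not settled here. Over the 410 named genes and all alternatives, 7031 of 7322 comparisons kept the direction and the side of the threshold, 256 lost the call, 35 gained it and 0 reversed. Many of these genes were named for wide differences in the same fit, and the alternatives reuse the same libraries. The count therefore describes the named genes only and is no test of stability. The median of 11 of the 48 lists changed sign, or reached 0, under at least 1 alternative. With 3 libraries per group, and depth counted in mates, levels below about 0.01 CPM could not be told from 0.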
